A study of Drosophila melanogaster with 24 samples.

Results

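The genes for mitochondrial ribosomal proteins were followed through a chromatin immunoprecipitation and sequencing (ChIP-seq) study of Isha and 3 insulator proteins in Kc167, an embryo-derived Drosophila cell line recorded as female. Members were the protein-coding genes whose symbol starts with mRpL, for the large ribosomal subunit, or mRpS, for the small subunit, and the RefSeq table of release 6 held 73 of them among 13922 protein-coding genes on arms 2L, 2R, 3L, 3R, 4 and X. By symbol alone, which set the subunit throughout, 47 were genes of the large and 26 of the small subunit. They were spread over 2L, 2R, 3L, 3R and X with none on chromosome 4. In the knockdown groups (IshaKD), cells received 12 µg of dsRNA that targets Isha and were kept for 5 days. The comparison groups were labelled mock, with no further detail of what the mock cells received. Each treatment has immunoprecipitates for CP190, Isha, Mod(mdg4) and Su(Hw) and their inputs. Every group was Kc167, and the labels name no allele. The 24 libraries made 12 groups of 2 replicates, and the 2 Isha replicates used different antisera. Separate cultures for the replicates are not mentioned in the labels.

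The deposited files used here were 8 lists of peak positions in dm6, 1 per antibody and treatment, with no score, read count or replicate. There was therefore no spread between replicates, no difference below carries a p-value, and the depth behind a peak is unknown. Shares of genes carry 95% Wilson intervals that cover counting error over genes only. A missing peak can be binding below the threshold of the authors' caller. The targeted protein's own list held 932 peaks after knockdown, against 4735 in mock cells. The knockdown lists held 8880 CP190, 4711 Su(Hw) and 1091 Mod(mdg4) peaks, against 8193, 4900 and 1305 in mock cells.

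Mitochondria carry their own ribosomes, which translate the few proteins encoded by mitochondrial DNA, all of them core subunits of the respiratory chain and the ATP synthase in animals. The RNAs of this ribosome come from mitochondrial DNA, whereas its proteins are encoded in the nucleus, made in the cytosol and imported. Some of these proteins descend from bacterial ribosomal proteins and others are found only in mitochondria. Insulator proteins bind DNA elements that separate regulatory domains. Su(Hw) is a zinc finger protein that recognises its own DNA motif. CP190 is a cofactor of several insulator proteins and is also common at promoters of housekeeping genes, and Mod(mdg4) is a partner of Su(Hw) at gypsy-type insulators.

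Nearly every mitochondrial ribosomal protein gene had Isha nearby in mock cells, and most had CP190. An Isha peak lay within 1000 bp of the span of 22 of the 73 genes after knockdown (30.1%, 20.8 to 41.4%), against 69 in mock cells (94.5%, 86.7 to 97.8%). Over all protein-coding genes the shares were 14.8% after knockdown and 49.7% in mock cells. A CP190 peak lay at 62 members after knockdown (84.9%, 75.0 to 91.4%) and at 63 in mock cells (86.3%, 76.6 to 92.4%), where all genes gave 63.0% and 61.0%. Su(Hw) was at 3 members after knockdown (4.11%, 1.41 to 11.4%) and at 5 in mock cells (6.85%, 2.96 to 15.1%), against 20.9% and 22.6% of all genes. Mod(mdg4) was at none of the 73 genes in either treatment, which leaves a Wilson upper bound of 5.00%, against 7.71% of all genes after knockdown and 8.23% in mock cells.

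The members are short genes in dense neighbourhoods, and both properties move with the number of peaks. Their spans ran from 390 to 13391 bp with a median of 909 bp, against a median of 2163 bp over all protein-coding genes. The 1000 bp window touched 2 or more other protein-coding genes for 69 members (94.5%), against 60.0% of all genes, and 43 members overlapped the span of another gene (58.9%, against 41.4% of all genes). Each member was therefore set beside non-member genes of like length, at most 20% shorter or 25% longer. Averaged over members, an Isha peak lay at 11.4% of these genes after knockdown and at 37.0% in mock cells, and a CP190 peak at 48.2% and 47.4%. The same genes gave 13.4% and 15.1% for Su(Hw), and 4.39% and 4.97% for Mod(mdg4). Neighbouring genes were then matched as well, in classes of none, 1, and 2 or more. The last class holds 69 members, and density within it was not matched. These comparison genes held Isha in 17.5% of cases after knockdown and 52.4% in mock cells, and CP190 in 59.9% and 58.6%. The share of members with a mock Isha peak was thus higher than that of comparison genes matched on length and neighbours, 94.5% against 52.4%, and its Wilson interval did not reach that value. For Su(Hw) the like-length values lay above the members' upper bounds, 13.4% against 11.4% after knockdown. In mock cells the margin was small, 15.07% against 15.05%. The neighbour-matched values of 11.2% after knockdown and 12.4% in mock cells lay inside the members' intervals. For Mod(mdg4) the like-length values and the neighbour-matched values of 3.92% after knockdown and 4.62% in mock cells all lay under the members' upper bound.

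**Figure D1:**
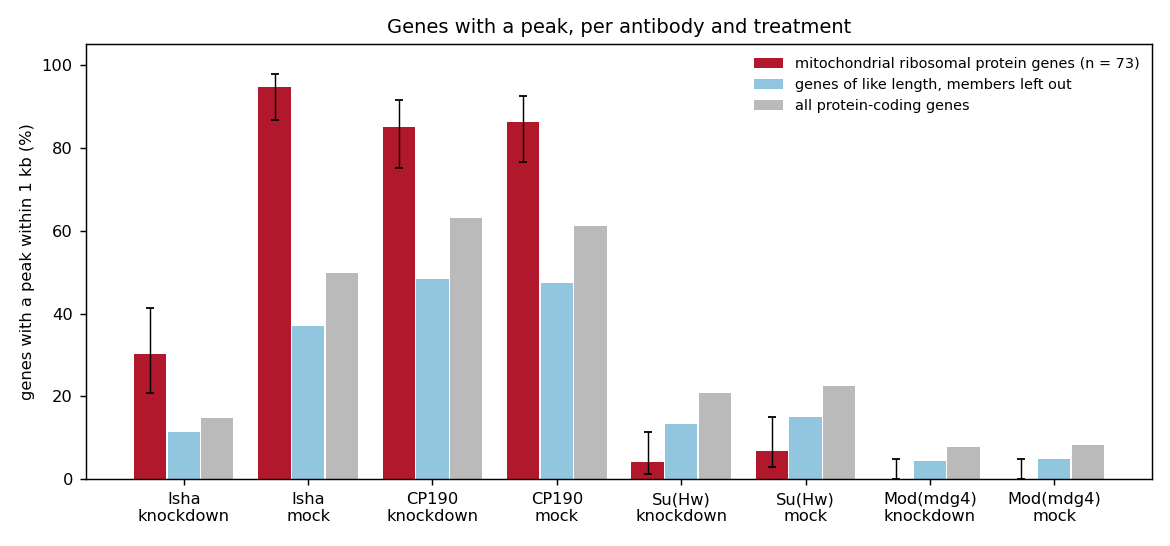
Share of genes with a peak within 1 kb of the span, in percent, for each antibody and treatment, for the 73 mitochondrial ribosomal protein genes (red, with 95% Wilson intervals), genes of like length (blue) and all 13922 protein-coding genes (grey). Members stand above both comparison sets for Isha and CP190, and at 0 for Mod(mdg4).

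Mock occupancy was high in both subunits, with overlapping intervals. An Isha peak was found in mock cells at 45 of 47 large-subunit genes (95.7%, 85.8 to 98.8%) and at 24 of 26 small-subunit genes (92.3%, 75.9 to 97.9%), and CP190 at 40 and 23 of them. Proteins with bacterial relatives and proteins found only in mitochondria, a grouping drawn up after the values were seen, gave 41 of 44 and 26 of 27 genes with mock Isha. The 2 genes left unclassed, mRpS28 and mRpS35, both had a peak. The genes mRpS18A, mRpS18B and mRpS18C, which are related to each other, all had Isha and CP190 in mock cells. On 2L and X every member had a mock Isha peak, 12 and 11 genes, and the other arms lacked it at 1 or 2 genes each.

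**Figure D2:**
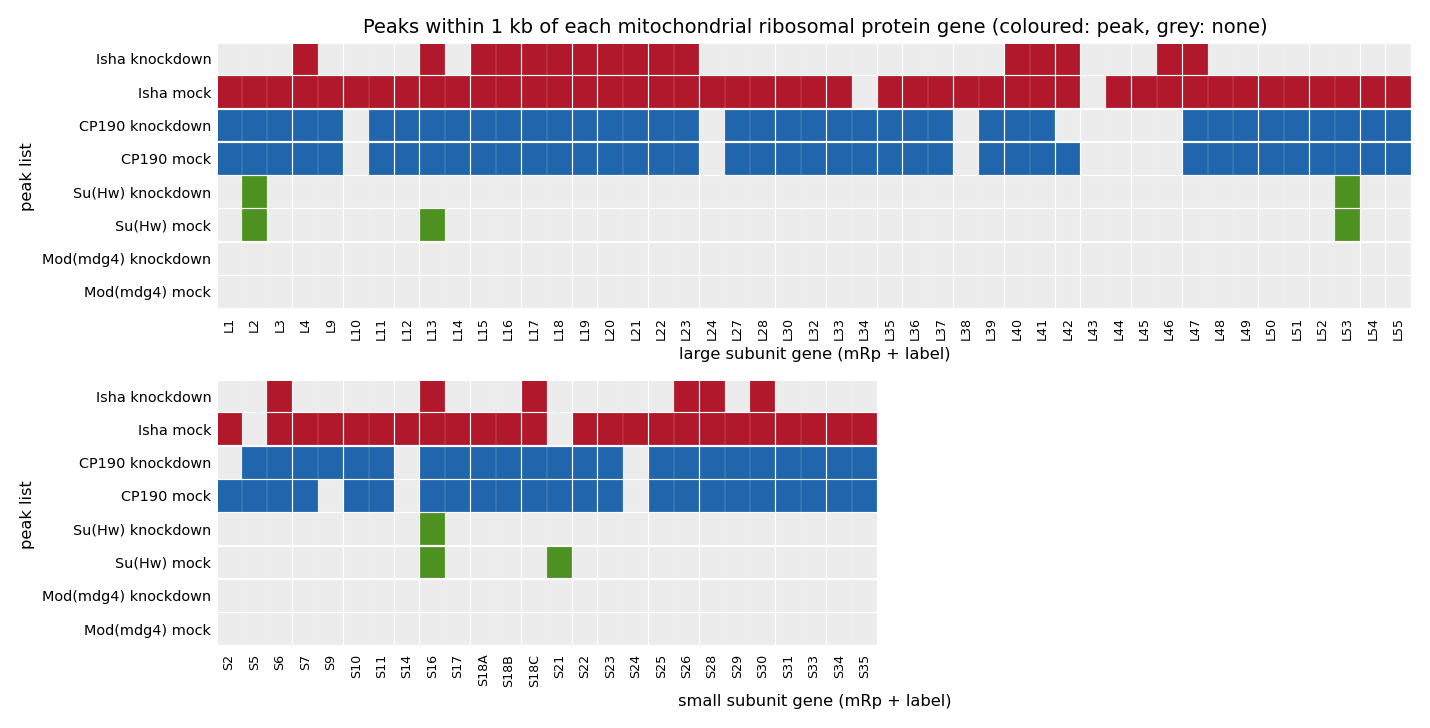
Presence (coloured) or absence (grey) of a peak within 1 kb of each of the 73 genes, with 1 column per gene and 1 row per list, the large subunit above and the small subunit below. The mock Isha row is filled for 69 genes and the knockdown Isha row for 22, while the CP190 rows differ at 3 genes.

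An Isha and a CP190 peak touched at most members in mock cells, and fewer shared a centre. Peaks of both proteins that overlapped by at least 1 bp were found at 17 members after knockdown (23.3%) and at 58 in mock cells (79.5%, 68.8 to 87.1%), where all genes gave 12.4% and 40.0%. When 50% of each mock peak had to be shared, the count fell to 20 members (27.4%, against 19.3% of all genes), and with midpoints within 250 bp it was 25 (34.2%, against 13.8%). Among genes with a mock Isha peak, a CP190 peak overlapped it at 84.1% of the 69 members and 80.5% of all 6922 such genes. This share is near the background. On the same base, the 50% rule was met at 20 members and 2688 genes, a lower share of members than of all genes. The midpoint rule was met at 25 members and 1921 genes, a higher share of members. The most frequent pattern over the 8 lists was mock Isha with CP190 in both treatments and nothing else, at 36 members (49.3%), against 22.3% of all genes. The next was Isha and CP190 in both treatments, at 18 members (24.7%), against 10.5% of all genes. Among genes with mock Isha, the first pattern was at 52.2% of members and 44.8% of all genes, and the second at 26.1% and 21.2%.

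The 2 proteins covered these genes differently. In mock cells an Isha peak spanned the whole gene at 47 of 69 members (68.1%, 56.4 to 77.9%) and covered 1 end at 20 more, whereas a CP190 peak spanned the whole gene at 8 of 63 (12.7%, 6.58 to 23.1%) and covered 1 end at 53. Genes of like length with a peak were spanned whole in 44.6% of cases for Isha and 12.2% for CP190. The 93 mock Isha peaks at members had a median width of 2294 bp, from 602 to 5578 bp, and 71 were wider than the list's median of 1535 bp. The 84 mock CP190 peaks had a median of 1257 bp, from 811 to 4523 bp, and 32 were wider than their list's median of 1410 bp. Where an Isha peak met a CP190 peak, which was so for 82 of the 93, the CP190 peak lay wholly inside the Isha peak in 45 cases and the reverse held in 5. The midpoints were a median of 449.5 bp apart. The RefSeq table gave no strand, so promoter and transcript end could not be told apart.

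**Figure D3:**
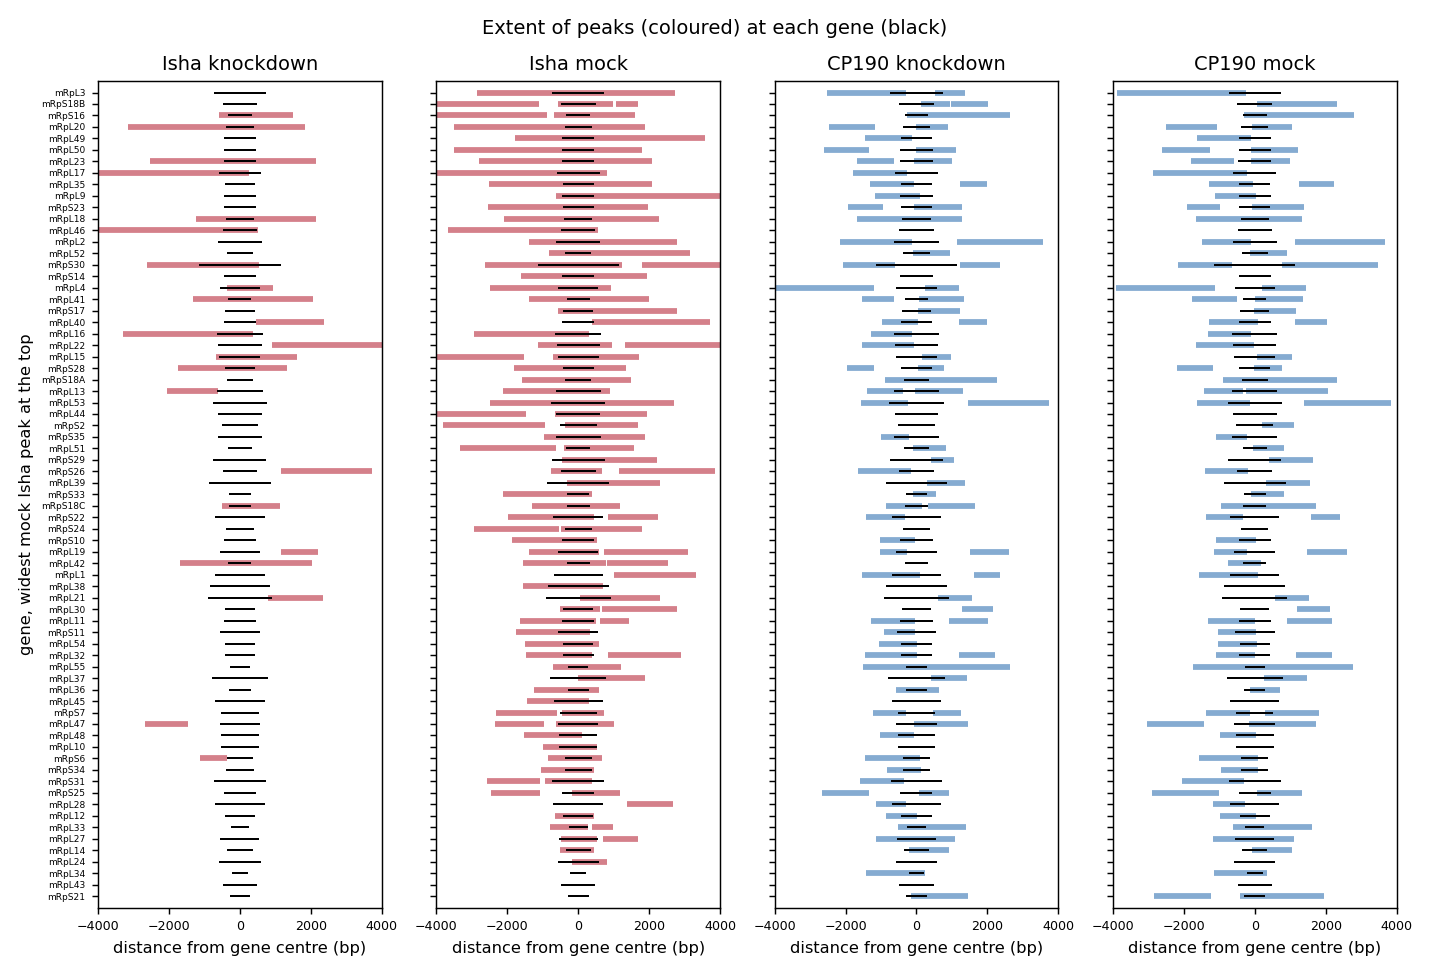
Extent of Isha (red) and CP190 (blue) peaks at the 71 members with spans under 5 kb, by distance from the gene centre in bp, with the gene as a black line, the widest mock Isha peak at the top, and bars cut at the panel edges. Mock Isha bars mostly run across the whole gene, and CP190 bars mostly meet 1 end of it.

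The widest mock Isha peaks at members stretched over several genes. The widest at any member, at mRpL3, whose bacterial relative lies near the peptidyl transferase centre, ran from 15759097 to 15764674 on X and also touched Graf and Polr3A, a gene for a subunit of RNA polymerase III. After knockdown no Isha peak lay within the window of mRpL3, while CP190 peaks lay at 15759442 to 15761667 and at 15762467 to 15763336, against a mock CP190 peak from 15758065 to 15761703. At mRpL20, whose bacterial relative binds ribosomal RNA early in assembly, the Isha peak ran from 13014350 to 13019342 on 3L after knockdown, against 13013993 to 13019404 in mock cells. The mock peak at mRpL49 (X, 12905733 to 12911111) touched 3 other genes and had no knockdown counterpart. The mock peak at mRpL50 (3L, 7239997 to 7245300) touched RpL18, which encodes a protein of the cytosolic ribosome, among 4 other genes, and likewise had none. The remaining 2 of the 6 widest lay beside the member rather than on it, 639 bp from mRpS18B and 584 bp from mRpS16, and each of these genes also had a narrower Isha peak across its whole span. A mock Isha peak touching 2 or more genes was present at 65 of 69 members (94.2%), against 86.3% of like-length genes with an Isha peak, and no Isha peak was shared by 2 members.

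Isha was absent from 4 members in mock cells. These were mRpL34 and mRpL43 on 2R, mRpS5 on 3L and mRpS21 on 3R, and after knockdown they had none either, against 0.329% of all genes without a mock peak that gained one. The nearest mock Isha peaks lay 2312 bp from mRpL34, 2582 bp from mRpL43, 6014 bp from mRpS21 and 139705 bp from mRpS5. The gene mRpS5, whose bacterial relative sits at the entry of the mRNA channel, spans 6299 bp and was the only member whose window touched no other gene. It had a CP190 peak at 24535716 to 24536596 after knockdown and at 24535403 to 24536829 in mock cells. CP190 was also present in both treatments at mRpL34 and mRpS21. The gene mRpL43 (2R, 23698105 to 23699014) had no peak in any list, as did 28.3% of all genes.

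In mock cells 9 members had Isha but no CP190 peak within the window, and they are named here after their values were seen. This was 13.0% of the 69 members with mock Isha, against 16.0% of all genes with it. They were mRpL10 and mRpL24 on 2L, mRpL46 on 3L, mRpL44, mRpL45, mRpS9 and mRpS24 on 3R, and mRpL38 and mRpS14 on X. The bacterial relative of mRpL10 forms the base of the stalk that recruits translation factors, and mammalian MRPL45 helps to hold the ribosome at the inner membrane. At mRpL10 the Isha peak (203273 to 204821) spanned the whole gene, and at mRpS14 (19478200 to 19481750) as well. For some of the 9 the edge of the window decided: mock CP190 lay 1241 bp from mRpL10, 1377 bp from mRpL44 and 1689 bp from mRpS9. At mRpL44 that CP190 peak (5466325 to 5468086) lay wholly inside a mock Isha peak (5465589 to 5468584). At the remaining genes mock CP190 was at least 3976 bp away. In 7 of the 9 genes mock Isha was the only peak within the window in any list, a pattern seen at 9.59% of members and 4.07% of all genes. Among genes with mock Isha the pattern was at 10.1% of members and 8.18% of all genes, a share near the background.

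After knockdown most members lost Isha, and they kept it about as often as other genes did. Of the 69 members with a mock Isha peak, 22 had a knockdown peak within the window (31.9%, 22.1 to 43.6%), against 29.4% of all genes with a mock peak and 30.8% of such genes of like length. A knockdown peak was found at 16 of 45 large-subunit and 6 of 24 small-subunit genes with mock Isha. Among the 22, the knockdown peak spanned the whole gene at 10 (45.5%), covered 1 end at 5 (22.7%) and lay outside the span at 7. Like-length genes with a knockdown Isha peak were spanned whole in 36.5% of cases and covered at 1 end in 37.9%. Both values lay inside the members' intervals of 26.9 to 65.3% and 10.1 to 43.4%. The 10 widest knockdown peaks were at mRpL20, mRpL23, mRpL17, mRpL46, mRpL42, mRpL16, mRpL18, mRpL41, mRpL22 and mRpS30. Of these, the bacterial relatives of mRpL22 and mRpL23 line the peptide exit tunnel or its rim, and the mammalian relative of mRpS30 is found in the large subunit despite its name.

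Peaks that remained kept nearly the same edges at some genes and shrank at others. At mRpL23 the Isha peak ran from 2370731 to 2375415 on 3L after knockdown, against 2370480 to 2375364 in mock cells. At mRpL41 it ran from 15215993 to 15219389 on 2R after knockdown, against 15215942 to 15219309 in mock cells. At mRpL4, whose bacterial relative reaches into the exit tunnel, it ran from 16328235 to 16329518 on 2L after knockdown, against 16326094 to 16329519 in mock cells. Over the 25 mock Isha peaks at members that a knockdown peak overlapped, the ratio of knockdown to mock width had a median of 0.923, from 0.280 to 2.16, and 19 peaks were narrower. Over all 893 such peaks the median ratio was 0.826, and 78.8% were narrower. The 25 mock peaks had a median width of 3176 bp, against 1535 bp over the mock Isha list. Peak width was not matched, and no difference in ratio was tested. The highest ratio came from mRpL42, where a single knockdown peak (10065249 to 10068982) met 2 neighbouring mock peaks. A single knockdown peak also met 2 mock peaks at mRpL22, with ratios of 1.53 and 0.991. The lowest ratio came from mRpL35, which is not among the 22 members. The knockdown peak there (22026017 to 22027313) met only the edge of the mock peak (22021405 to 22026029) and lay 1676 bp from the gene.

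At 7 of the 22 members, named after their values were seen, the knockdown peak lay beside the gene. Other genes had peaks so placed too. Over all genes, a knockdown Isha peak lay within the window at 14.8% and on the span at 11.3%. Members gave 30.1% and 20.5%, and no difference in placement was tested. The peak was outside the span of mRpL13, mRpL19, mRpL22, mRpL40, mRpL47, mRpS6 and mRpS26, at distances of 9 to 925 bp. At mRpS26 the mock list held a peak across the gene (3L, 18106276 to 18107720) and another beside it (18108198 to 18110886), and the knockdown list held the second alone (18108191 to 18110764), which touches Polr3D and mus304. At mRpL19 a mock peak across the gene likewise had no knockdown counterpart, while the peak at Unc50 remained. Counted on the gene span alone, Isha was found at 15 members after knockdown (20.5%), against 67 in mock cells (91.8%). Over all genes these shares were 11.3% and 43.6%.

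Members that kept Isha had wider mock peaks, taking the widest in the window of each member. The widest mock Isha peak had a median of 3223 bp at the 22 members with a knockdown peak, from 1513 to 5419 bp, and 2317 bp at the 47 without, from 980 to 5578 bp, so the ranges overlapped. Over all genes the medians were 2858 bp and 2028 bp. The widest mock peak was not always the one that remained. At mRpS16 (5419 bp), mRpL15 (3179 bp) and mRpL47 (1642 bp) no knockdown Isha peak overlapped it, and a narrower mock peak was overlapped instead. In 4 width classes that hold equal numbers of all genes with mock Isha, a knockdown peak was found at 1 of 11, 2 of 15, 5 of 18 and 14 of 25 members, from narrow to wide. Over all genes the shares were 9.65%, 21.4%, 37.4% and 49.3%. Width without a score cannot separate the extent of binding from its strength.

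**Figure D4:**
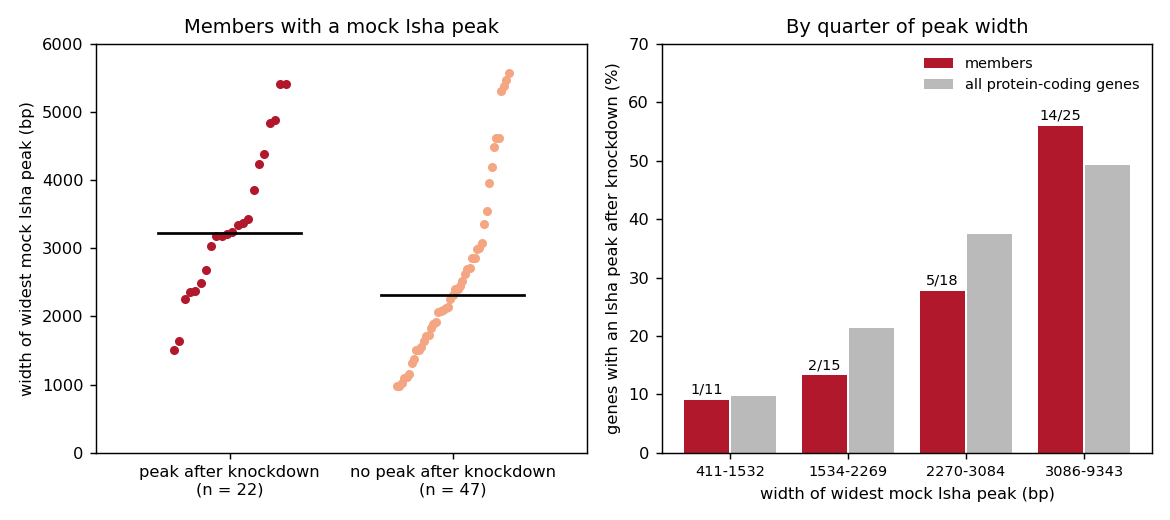
Left, width in bp of the widest mock Isha peak at each member with (dark) and without (light) a knockdown Isha peak, with medians of 3223 and 2317 bp as bars. Right, percent of genes with an Isha peak after knockdown in 4 classes of mock width, for members (red, with counts) and all protein-coding genes (grey), rising with width in both.

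Nearly all members with mock CP190 still had a CP190 peak after Isha knockdown, about as often as other genes did. Of the 63 members with mock CP190, 61 had a knockdown peak (96.8%, 89.1 to 99.1%), against 96.9% of all genes with a mock peak and 94.7% of those of like length. The exceptions were mRpL42 and mRpS2, against 3.13% of all genes with mock CP190 that lost it. The mock peaks there were below the list's median width, 928 bp at mRpL42 (2R, 10066204 to 10067131) and 902 bp at mRpS2 (2L, 4850143 to 4851044). No knockdown CP190 peak overlapped either of them. The nearest knockdown CP190 peaks, 1108 bp from mRpL42 and 1402 bp from mRpS2, overlapped other mock peaks. Isha differed between these genes, since mRpL42 kept a knockdown Isha peak and mRpS2 did not. A CP190 peak was gained at mRpS9 (3R, 7902310 to 7903111), whose bacterial relative reaches the P site, against 10.0% of all genes without mock CP190, and the mock Isha peak there (7901790 to 7902951) was lost. Over 81 mock CP190 peaks at members that a knockdown peak overlapped, the width ratio had a median of 0.908, from 0.411 to 1.47, and 70 were narrower, against a median of 0.853 over 7686 peaks.

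Su(Hw) was close to few members and mostly beside them. Of the 5 genes with a mock peak, mRpL2, mRpL53 and mRpS16 had a knockdown peak and mRpL13 and mRpS21 did not, 3 of 5 against 88.2% of all genes with mock Su(Hw), with an interval of 23.1 to 88.2% for so few genes. At mRpS21 the difference came from the edge of the window: the knockdown peak (3R, 13378732 to 13380189) lay 1087 bp from the gene, against 920 bp for the mock peak (13378729 to 13380356). At mRpL13 the mock peak (2L, 18858989 to 18859760) covered an end of the gene and overlapped CP190 and Isha, and the nearest knockdown Su(Hw) peak was 11087 bp away. At mRpL2, whose bacterial relative helps to form the peptidyl transferase centre, the peak lay 921 bp away after knockdown and 891 bp away in mock cells. At mRpL53 it lay 668 bp away after knockdown and 656 bp away in mock cells. At mRpS16 it ran from 14173757 to 14174572 on 2R after knockdown, 161 bp from the gene, against 14173402 to 14174712 in mock cells, which covered an end of it.

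Other nuclear genes of mitochondrial gene expression were read from lists drawn up with earlier results known. They are longer than the members, with median spans from 1381.5 to 2727 bp, and no difference from the members was tested. The 2 further mitoribosomal protein genes that carry other symbols, tko and bonsai, had mock Isha and CP190 in both treatments and no knockdown Isha. Among 9 mitochondrial translation factor genes, Isha was at 3 after knockdown and 8 in mock cells, and CP190 was at 7 in each treatment. The gene without mock Isha was the initiation factor gene mIF2, which had CP190 in both treatments. The 3 with Isha after knockdown were mIF3 and the elongation factor genes mEFTu1 and mEFTu2. All 12 genes of mitochondrial DNA maintenance and transcription had mock Isha, and 4 had it after knockdown: PolrMT, the mitochondrial RNA polymerase, mTTF and mTerf3 of the termination factor family, and bsf, an RNA-binding protein gene. CP190 was at 11 of these 12 in each treatment. Of 15 mitochondrial aminoacyl-tRNA synthetase genes, 2 had Isha after knockdown (13.3%) and 13 in mock cells (86.7%), and 11 had CP190 in each treatment (73.3%). Of the 13 with mock Isha, 15.4% kept it. Su(Hw) was at 2 of the synthetase genes in each treatment, and Mod(mdg4) at 2 after knockdown and 1 in mock cells. The gene ArgRS-m, which overlaps the span of mRpS9, had no Isha and was the only gene of these 4 lists with Mod(mdg4) in mock cells.

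The members were also set beside the cytosolic ribosomal protein and oxidative phosphorylation genes. Isha was at 20 of 87 cytosolic ribosomal protein genes after knockdown and at 81 in mock cells (93.1%, 85.8 to 96.8%), and at 25 and 68 of 88 genes for subunits of oxidative phosphorylation (77.3%, 67.5 to 84.8% in mock cells). In mock cells CP190 was at 83 of the cytosolic ribosomal protein genes (95.4%, 88.8 to 98.2%) and at 63 of the oxidative phosphorylation genes (71.6%, 61.4 to 80.0%), against 86.3% of members. Of the genes with mock Isha, 24.7% of the cytosolic set and 36.8% of the oxidative phosphorylation set had a knockdown peak, against 31.9% of members, with overlapping intervals. The oxidative phosphorylation list includes paralogs whose symbols end in L, and no difference between sets was tested.

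**Figure D5:**
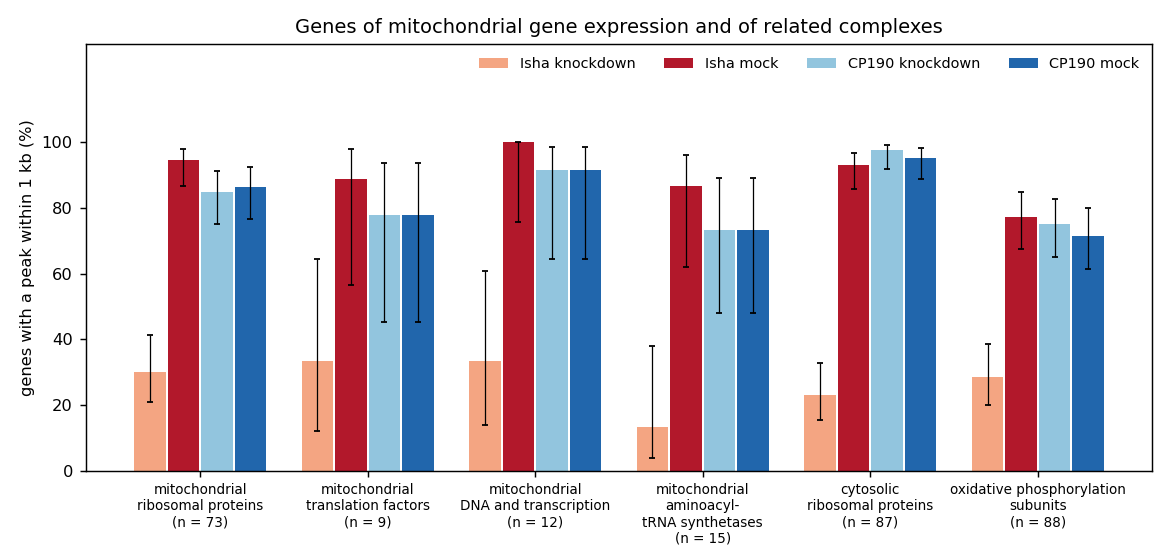
Percent of genes with an Isha or CP190 peak within 1 kb, after knockdown (light) and in mock cells (dark), for members and 5 other gene sets, with 95% Wilson intervals. Mock Isha stands at 94.5% of members and 93.1% of cytosolic ribosomal protein genes, and at 77.3% of oxidative phosphorylation genes.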

How the data were processed

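ChIP-seq was made from 24 libraries, 16 immunoprecipitates and 8 inputs. Per the submitters' processing notes, the tools were Bowtie2 2.4.1, SAMtools 1.9 and Picard 2.22.2 with dm6 as the build. Which program called the peaks, at what threshold, and how replicates were joined is not given in the sources used here. Chromosome, start and end are all that the deposited lists hold; they were read as peaks joined over both replicates, with groups taken from the names of the lists ("SwHw" was read as Su(Hw)). No column of other samples was present.

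Peaks on 2L, 2R, 3L, 3R, 4 and X were used, which left out 1 to 5 per list; coordinates are counted from 1. A gene counted as having a peak when a peak lay within 1000 bp of its span in the RefSeq table (Release 6 plus ISO1 MT). Like-length shares are means over members of the share among genes at most 20% shorter or 25% longer, members left out. No test was made, as each group had 1 list. Members and lists were chosen with earlier results of these data known. Named genes were all members of a class up to 15, otherwise the 10 widest, and the 6 with the widest mock Isha peak. Mitoribosomal, translation, DNA and synthetase lists matched in full; DAP3 is mRpS29, a member. With no strand or sequence used here, gene ends replaced start sites, and promoters and motifs were not analysed. The marking of genes was tested on simulated data. Python 3.11.15, NumPy 2.4.6, pandas 2.3.3, SciPy 1.17.1 and matplotlib 3.10.9 were used.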

Additional observations from a re-analysis of the deposited data

How the results depend on the processing

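No paired analysis was possible because each list joins both replicates, and no replicate could be left out for the same reason. A stricter caller threshold was replaced by leaving out the narrowest 25% of peaks in each list, since the lists hold no score. Of 118 alternative values, 87 were classed as unchanged and 31 as moved, and the cause was not tested. For shares of members, moved means outside the interval of the reported value. Shares of like-length genes and of all genes carry no interval, so their class does not refer to one. For Isha after knockdown, 20.5% of members had a peak on the span alone, against 11.3% of all genes. For Isha in mock cells, 86.3% had a peak midpoint inside the window, against 43.8% of all genes. Without the narrowest peaks, CP190 was at 74.0% of members after knockdown and 60.3% in mock cells, against 56.5% and 52.6% of all genes. Su(Hw) after knockdown was at 0% of members on the span alone, and at 1.37% with a 500 bp window, at gene ends or by midpoint. All genes gave 15.8%, 18.5%, 13.2% and 17.4% in that order. Su(Hw) in mock cells was at 2.74% of members under each of these 4 settings, against 14.9 to 20.0% of all genes. The sole member with no other gene in its window, mRpS5, had CP190 (100% in both treatments) and neither Isha nor Su(Hw) (0% in both). With neighbours matched, like-length genes held Isha in 17.5% and 52.4%, CP190 in 59.9% and 58.6%, and Su(Hw) in 11.2% and 12.4% of cases (knockdown and mock), and Mod(mdg4) after knockdown in 3.92%. Isha and CP190 in mock cells met at 27.4% of members when 50% of each peak had to be shared, against 19.3% of all genes. When midpoints had to lie within 250 bp, the shares were 34.2% and 13.8%. Counted only among genes with mock Isha, the 50% rule was met at a lower share of members than of all genes. The midpoint rule was met at a higher share of members on that base. With a 2000 bp window 100% of members with mock CP190 had a knockdown peak, but at mRpL42 and mRpS2 it was not at the position of the mock peak on the gene. When the mock peak itself had to be overlapped, 61 of 63 kept it. On the span alone 0% of 2 kept Su(Hw). Leaving out the 2 members with spans over 5 kb, added after seeing the data, moved no value outside its interval. Depth is unknown and limits every absent peak.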

Other observations

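Members numbered mRpL13 to mRpL23, all of them proteins with bacterial relatives, made up 10 of the 22 members with a knockdown Isha peak. The exception among these 11 genes was mRpL14, and 12 of the 58 other members with mock Isha kept it. Of all genes with mock Isha, 29.4% kept it, and 49.3% of those in the widest class, 3086 to 9343 bp. The 11 genes lie on 5 arms and share no peak, and their widest mock Isha peaks had a median of 3213 bp, against 2467.5 bp at the other members. The run was noticed after the values were seen, and its ends follow the outcome, since mRpL12 and mRpL24 had no knockdown Isha peak. A number in the symbol carries no position in the genome, and no test was made.

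By number of other protein-coding genes in the window, a mock Isha peak was found at 0 of 1 members with none, 3 of 3 with 1, 56 of 59 with 2 and 10 of 10 with 3 or more. Over all genes the shares were 9.96%, 30.5%, 66.5% and 67.5%. For CP190 in mock cells the members gave 1 of 1, 3 of 3, 51 of 59 and 8 of 10, and all genes 38.9%, 52.2%, 68.6% and 72.7%.

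At mRpS9, a cluster of Su(Hw), Mod(mdg4) and CP190 peaks lay just beyond the window in mock cells, 1844, 2387 and 1689 bp from the gene. After knockdown the Su(Hw) and Mod(mdg4) peaks lay 1950 and 2257 bp away.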
